A study of Arabidopsis thaliana with 30 samples.

Results

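Leaves of the catalase mutant cat2 were compared between long and short days after 2 days in air, on 3 arrays of each group and so on 6 of the 30 arrays of the series. The members are the 3 cat2 arrays labelled LD2 and the 3 cat2 arrays labelled SD2, chosen by their labels alone, and every difference below is long days minus short days over all 22746 probe sets that are not controls. The mutant line is given as cat2-1 in the design and the reference is wild-type Arabidopsis thaliana Col0. All plants of both genotypes grew in soil for 5 weeks at 3000 ppm CO2 with 8 h of light and 16 h of dark, at 20 °C by day and 18 °C by night and an irradiance of 200 µmol per square metre and second. Plants of the SD2 groups then spent 2 days in air (400 ppm CO2) in the same short days, and those of the LD2 groups spent 2 days in air with 16 h of light and 8 h of dark. The same transfers were followed for 4 days (SD4 and LD4), and the hCO2 groups stayed at high CO2 in short days. The treatment label of the Col0 hCO2 arrays reads 300 ppm where the growth protocol reads 3000 ppm, and the protocol value is used here. Rosette leaves were taken 7 h into the light period, and each array holds RNA from a pool of 2 leaves of different plants. The long-day plants therefore differed from the short-day plants in total light per day as well as in day length, and these cannot be told apart.

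Catalase removes hydrogen peroxide in leaf peroxisomes, and CAT2 encodes the main leaf isoform. Photorespiration, the recycling of the product that Rubisco makes when it takes up oxygen, delivers hydrogen peroxide to the peroxisome. High CO2 suppresses it and a transfer to air releases it, so that cat2 plants are widely used to raise intracellular hydrogen peroxide without an added chemical. Day length is known to alter how cat2 responds: lesions and salicylic acid responses have been described in long days, and oxidative stress without lesions in short days. Heat shock proteins, glutathione transferases and UDP-glycosyltransferases are known targets of oxidative signals in leaves.

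The values are log2 signals, so a difference of 1 is a 2-fold difference. Differences carry the standard error (SE) of the fit after ±, with n = 3 arrays in each group, and levels carry the standard deviation (SD). A probe set is said to rise or fall in long days where limma with Benjamini-Hochberg adjustment over all 22746 probe sets gave an adjusted p below 0.05. Correlations between arrays of 1 group lay between 0.9938 and 0.9956 in the long-day cat2 group and between 0.9938 and 0.9945 in the short-day one. No probe set used here is named for CAT2, so the mutated gene was not checked. Of the leaf mesophyll markers only RCA, which encodes Rubisco activase, had a probe set of its own, and it was high and even (14.06 to 14.09 in short days, 14.08 to 14.20 in long days). The root marker EXPA7 was low on all 6 arrays (4.79 to 5.23). The guard cell markers FMA (0.08 ± 0.15, adjusted p = 0.795) and AT1G22690 (0.50 ± 0.22, adjusted p = 0.121) were not called, and none of 6 flower or 3 phloem markers was measured. In whole leaves, fewer cells of a type and less RNA per cell cannot be told apart.

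After 2 days in air, day length separated 3668 of 22746 probe sets in cat2 (16.1%), of which 1993 rose (8.76%) and 1675 fell (7.36%). The falls reached further than the rises. In 8229 probe sets (36.2%) the 3 long-day arrays did not overlap the 3 short-day ones, and 3597 of these were also called (15.8%). At least 4-fold falls numbered 102 and at least 4-fold rises 23, and 26 falls and 4 rises were 8-fold or more. The median over all probe sets was 0.03. Of the called probe sets 1095 rises and 851 falls had exactly 1 gene in the annotation used here, and only such probe sets are named by gene.

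As a set the 102 large falls stood highest in cat2 in short days. Their median level was 9.10 in cat2 SD2 and 8.17 in cat2 SD4, and 6.29 in cat2 LD2. It was 6.53 in Col0 SD2, 5.89 in Col0 LD2 and 5.60 in cat2 at high CO2. Single members also stood high elsewhere: ZW9 had means of 9.56 in Col0 SD2 and 9.29 in cat2 at high CO2. The 23 large rises had higher median levels in long days in both genotypes. These were 6.12 in cat2 SD2, 8.46 in cat2 LD2, 6.36 in Col0 SD2 and 8.30 in Col0 LD2. These probe sets were picked by the cat2 arrays, so the medians are a description. The cat2 arrays were not alike at the large falls: their levels in short-day replicate 3 had a median 0.41 below the group mean, against 0.22 and 0.16 above it in replicates 1 and 2. Falls of the named genes, whose choice is set out with the processing, were checked without that array. Only those of WRKY22 and BIK1 lost their call. Further list members given beside the named genes, such as AT3G09440, were not checked in this way.

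**Figure D1:**
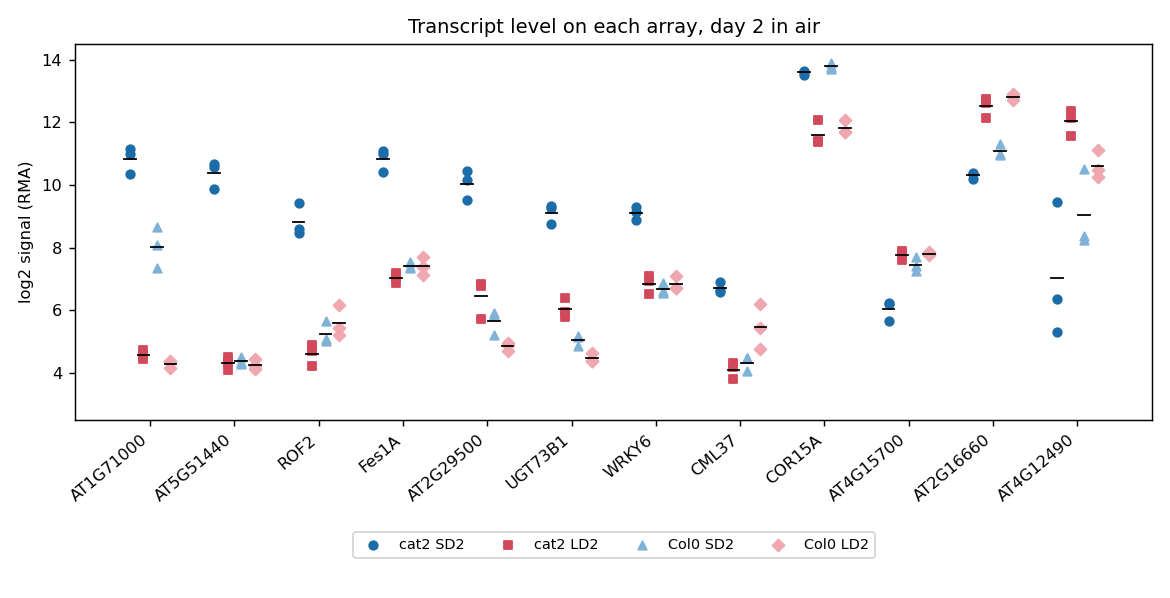
Log2 signal of 12 genes on each of the 3 short-day and 3 long-day arrays of cat2 and of Col0 at day 2, 1 point per array. The chaperone and glycosyltransferase genes are high on the 3 cat2 short-day arrays and low on the cat2 long-day arrays, COR15A is low in long days in both genotypes, and AT4G12490 is widely spread in short days.

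Among probe sets with 1 gene, the 5 deepest falls were those of chaperones and their partners. Small heat shock proteins hold unfolding proteins in solution, and the larger chaperones and their partners refold them. Of the 10 small heat shock protein genes measured 6 fell and 1 rose (list median −0.64), where 7.36% of all probe sets fell. The remaining 3 differed by 0.09 or less in either direction. Of the 16 chaperones and co-chaperones measured 8 fell and none rose (median −0.65). AT1G23100, a chaperonin of the GroES type that is not on this list, rose by 0.92 ± 0.19 (adjusted p = 0.00133). Both lists were written after values had been seen. The largest difference among the 16 with no call was that of Hsp70-2 (−0.71 ± 0.31, adjusted p = 0.128).

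AT5G51440, which encodes a mitochondrial small heat shock protein, had log2 signals of 10.66, 10.57 and 9.86 in cat2 short days and of 4.34, 4.10 and 4.51 in cat2 long days. All 3 long-day arrays lay at the level of Col0, whose arrays ranged from 4.27 to 4.52 in short days and from 4.13 to 4.43 in long days. The difference in cat2 was −6.05 ± 0.18 (adjusted p = 3.81e-17), a 66.1-fold lower signal. AT1G71000, a DnaJ-domain protein of the family that assists Hsp70, read 11.16, 11.00 and 10.36 in short days and 4.56, 4.45 and 4.72 in long days. Its groups stood more than 5 log2 units apart, and it had the deepest fall among the named genes (−6.26 ± 0.31, adjusted p = 7.83e-13).

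The co-chaperones of Hsp70 and Hsp90 followed. AT5G48570 (ROF2), an immunophilin of the FKBP family that binds Hsp90, read 9.43, 8.59 and 8.47 in short days and 4.90, 4.20 and 4.71 in long days, a fall of 4.22 ± 0.40 on the log2 scale (adjusted p = 5.78e-08). Fes1A, a nucleotide exchange factor of cytosolic Hsp70, read 11.08, 10.98 and 10.40 against 7.05, 6.88 and 7.19 (−3.78 ± 0.17, adjusted p = 2.69e-13). Neither gene's arrays overlapped between day lengths. Hop3, which links Hsp70 to Hsp90, read 7.18, 6.53 and 5.71 against 3.53, 3.56 and 3.57, with the largest spread in short days (−2.92 ± 0.25, adjusted p = 1.68e-08). Its relative Hop2 fell by 0.60 ± 0.20 on the log2 scale (adjusted p = 0.0411), and Hop1 was at −0.03. The DnaJ-domain gene AT2G20560 fell by 2.83 ± 0.25 and AT4G28480, another, by 0.94 ± 0.10 on the log2 scale. AT3G09440, a cytosolic Hsp70, was abundant in both day lengths and still fell, from 12.14, 12.20 and 12.01 to 10.36, 10.40 and 10.28 (−1.77 ± 0.12, adjusted p = 2.95e-10).

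Among the other small heat shock proteins, AT2G29500 of the cytosolic class I read 10.45, 10.16 and 9.52 in short days and 6.76, 5.73 and 6.85 in long days (−3.60 ± 0.32, adjusted p = 1.93e-08). AT1G53540 of the same class fell by 2.38 ± 0.31 and AT1G54050 by 1.46 ± 0.22 on the log2 scale. AT4G21870 went the other way: its arrays read 4.94, 5.71 and 5.50 in short days and 7.21, 7.30 and 7.05 in long days (1.80 ± 0.18, adjusted p = 1.04e-07). It was the only member of the list that rose. The 4 measured genes of protein folding in the endoplasmic reticulum, on 5 probe sets, were not called (−0.22 to 0.31).

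The genes commonly read as marks of oxidative stress fell in part. Of 5 measured 3 fell (list median −2.26), where 7.36% of all probe sets fell. GSTU25, a tau class glutathione transferase that conjugates glutathione to reactive compounds, read 7.85, 8.02 and 5.61 in short days and 5.16, 3.83 and 4.76 in long days. The groups did not overlap, but short-day replicate 3 lay close to the long-day arrays. The difference was −2.58 ± 0.43 (adjusted p = 0.00016), and −3.35 without that array. STZ, a zinc finger repressor of stress responses, read 9.75, 9.85 and 10.06 against 7.15, 7.17 and 7.77 (−2.52 ± 0.33, adjusted p = 7.26e-06). WRKY6, a transcription factor of senescence and defence, read 9.12, 9.30 and 8.88 against 6.50, 6.92 and 7.10 (−2.26 ± 0.17, adjusted p = 2.02e-09). The mitochondrial NAD(P)H dehydrogenase gene NDB2 (−0.58 ± 0.24, adjusted p = 0.114) and AT2G21640 (−0.54 ± 0.23, adjusted p = 0.118), both known markers of mitochondrial stress, were not called.

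Detoxifying enzymes fell as a minority of large families. Of 11 tau class glutathione transferases 4 fell and none rose (median −0.06), where 7.36% of all probe sets fell. GSTU25, already counted among the oxidative stress markers, was 1 of the 4. GSTU22 fell by 0.97 ± 0.14 and GSTU26 by 0.96 ± 0.23 on the log2 scale. The call of GSTU16 (−0.64 ± 0.21, adjusted p = 0.0403) was lost without long-day replicate 1 or 2 or short-day replicate 1 or 2 (−0.69, −0.47, −0.60 and −0.59), and with arrays centred on their medians (−0.62). With dim probe sets left out 2 of the family fell. UDP-glycosyltransferases attach sugars to hormones, flavonoids and foreign compounds. Of 51 measured 12 fell and 4 rose (median −0.05), where 8.76% of all probe sets rose.

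The falls among glycosyltransferases were deepest in the UGT73 group. UGT73B1, a flavonoid glucosyltransferase, read 9.26, 9.31 and 8.75 in short days and 6.39, 5.93 and 5.77 in long days (−3.07 ± 0.17, adjusted p = 6.81e-12). UGT73B5 read 8.94, 8.67 and 7.98 against 5.30, 5.26 and 5.92 (−3.04 ± 0.30, adjusted p = 1.01e-07). UGT73C1 fell by 2.38 ± 0.21 and UGT73B4 by 1.75 ± 0.25 on the log2 scale. Sequence likeness within this group means that their probe sets may share signal. UGT76E11 fell by 1.92 ± 0.28 and UGT85A5 by 1.31 ± 0.18, while UGT85A4 rose by 1.15 ± 0.19 (adjusted p = 0.00016), the largest rise of the family. The count of 4 rises was 1 without long-day replicate 1 or short-day replicate 3 and 2 without long-day replicate 3 or short-day replicate 1.

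Genes of calcium signalling and defence moved in both directions. CML37 and CML38 encode calmodulin-like calcium sensors. CML37 read 6.89, 6.58 and 6.64 in short days and 3.81, 4.18 and 4.30 in long days (−2.61 ± 0.27, adjusted p = 2.57e-07). CML38 fell by 1.41 ± 0.23 on the log2 scale (adjusted p = 9.9e-05). Of 8 calmodulin-like genes 2 fell and 2 rose (median −0.04), where 7.36% and 8.76% of all probe sets did. With dim probe sets left out CML37 was not tested and 1 fell, and both rises were lost when single arrays were left out. CML41 rose by 1.60 ± 0.46 (adjusted p = 0.0176), and by 1.05, 1.59 and 1.49 with no call without long-day replicate 3, short-day replicate 1 and short-day replicate 2. CML42 rose by 0.66 ± 0.20 (adjusted p = 0.0266), and by 0.68, 0.57, 0.62 and 0.56 with no call without replicates 1 and 2 of long days and 1 and 2 of short days.

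The cysteine-rich secreted protein gene AT3G22060 read 9.29, 9.54 and 9.11 in short days and 6.50, 6.54 and 6.58 in long days, with little spread in either group (−2.77 ± 0.20, adjusted p = 8.87e-10). AT4G39670, which encodes a protein of the glycolipid transfer family, read 10.30, 10.22 and 9.62 against 5.96, 6.70 and 7.23 (−3.42 ± 0.44, adjusted p = 4.75e-06). Both sets of arrays were clearly apart. Of 7 WRKY factors WRKY6 and WRKY22 fell and WRKY47 rose by 1.51 ± 0.33 (adjusted p = 0.00201; list median −0.40). Over all probe sets 7.36% fell and 8.76% rose. The call of WRKY22 (−0.40 ± 0.11, adjusted p = 0.0173) was lost when the fit held the compared arrays alone (adjusted p = 0.058) and without long-day replicate 1 or 2 or short-day replicate 2 or 3 (−0.38, −0.32, −0.33 and −0.37).

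**Figure D2:**
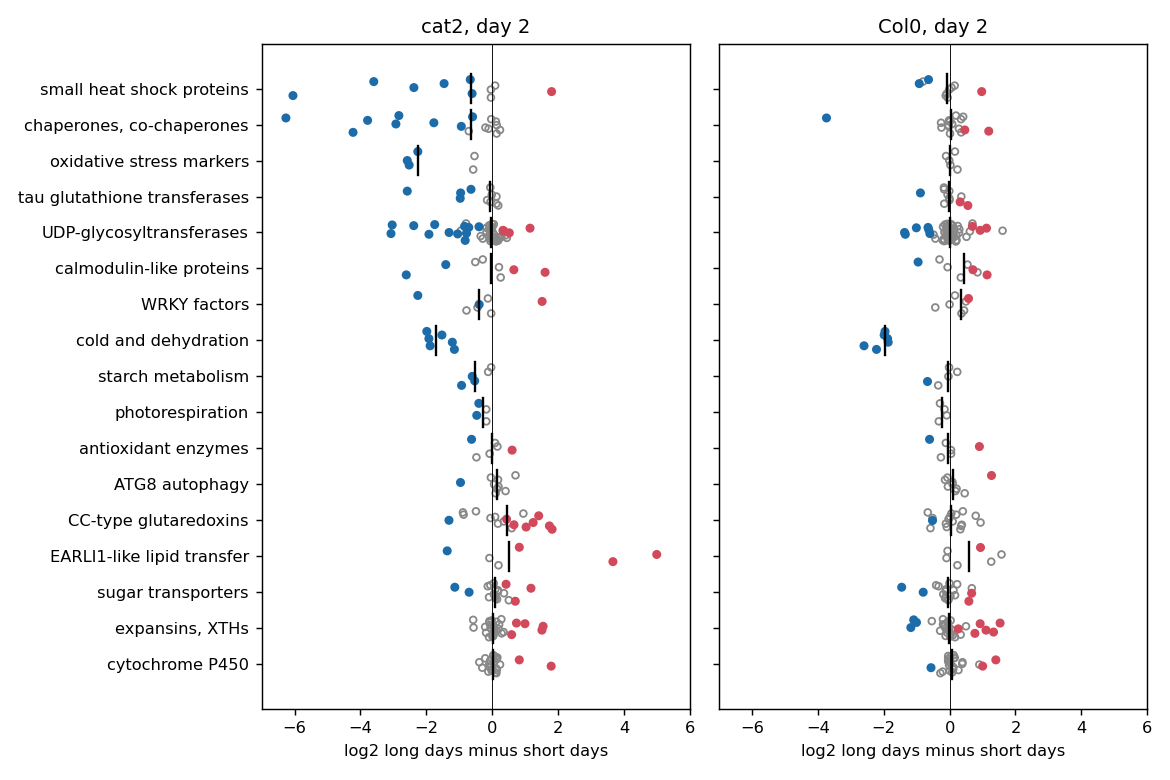
Log2 difference, long minus short days, of every measured member of 17 gene groups in cat2 (left) and Col0 (right) at day 2, 1 point per probe set, with blue for members that fell, red for members that rose, open points for those not called and a bar at the median. In cat2 the chaperone groups and the oxidative stress markers reach far to the left and the CC-type glutaredoxins lean to the right, and the 6 cold and dehydration genes lie to the left in both genotypes.

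Cold- and dehydration-responsive genes fell as a whole group. They encode hydrophilic proteins that protect membranes and proteins when cells lose water, and several are gated by the circadian clock. All 6 measured fell (median −1.71), where 7.36% of all probe sets fell. COR15A, a chloroplast protein that stabilises membranes, read 13.62, 13.65 and 13.52 in short days and 11.39, 11.36 and 12.08 in long days (−1.98 ± 0.21, adjusted p = 2.29e-07). Its short-day level was near the top of the array's range and its long-day level was lower on every array. The dehydrins COR47 and LTI30 fell by 1.92 ± 0.24 and 1.88 ± 0.34 on the log2 scale, and COR15B by 1.53 ± 0.13. AT4G33980 (COR28) fell by 1.21 ± 0.20 and COR27 by 1.15 ± 0.25, both known regulators of the clock. The clock gene GI was not called (−0.40 ± 0.17, adjusted p = 0.117).

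Some starch and photorespiration genes had small falls at high levels. Of 5 genes of starch metabolism 3 fell and none rose (median −0.53), where 7.36% of all probe sets fell. PWD, a dikinase of starch breakdown, fell by 0.93 ± 0.20 (adjusted p = 0.00158), SBE2.2, a branching enzyme, by 0.61 ± 0.12 and DPE1, which disproportionates maltotriose in the chloroplast, by 0.53 ± 0.12 on the log2 scale. Of 4 photorespiration genes 2 fell (median −0.29). HPR, the peroxisomal hydroxypyruvate reductase, read 12.89, 12.86 and 12.87 against 12.53, 12.41 and 12.27 (−0.47 ± 0.11, adjusted p = 0.00345). AT1G11860, a subunit of glycine decarboxylase, fell by 0.41 ± 0.13 (adjusted p = 0.0288), with no call without long-day replicate 3 or short-day replicate 1 or 2 (−0.31, −0.41 and −0.38).

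Antioxidant enzymes did not move together. Of 6 measured SAPX, a stromal and mitochondrial ascorbate peroxidase, rose by 0.60 ± 0.14 (adjusted p = 0.00468). TAPX, its thylakoid counterpart, fell by 0.63 ± 0.17 (adjusted p = 0.0134), and was not called without long-day replicate 3 or short-day replicate 2 (−0.56 both times). The count of falls was 2 under several alternatives, the replicate block and array weights among them. The list median was 0.00, and 8.76% of all probe sets rose and 7.36% fell. Of 9 ATG8 genes of autophagy only ATG8H fell (−0.98 ± 0.15, adjusted p = 4.48e-05; list median 0.15). ATG8E (0.71 ± 0.25, adjusted p = 0.0567) was called as a rise with array weights or with the compared arrays alone in the fit.

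The rises held fewer large changes. The largest among probe sets with 1 gene were those of AT4G12490 and AT4G12500, tandem copies of the EARLI1 type of lipid transfer protein at the cell surface, whose probe sets may share signal. AT4G12490 read 6.37, 5.29 and 9.46 in short days and 12.37, 12.15 and 11.58 in long days. The groups did not overlap, but short-day replicate 3 stood more than 3 log2 units above the other two. The difference was 4.99 ± 0.78 (adjusted p = 7.18e-05), and 6.20 without that array. AT4G12500 had the same odd array (4.68, 4.58 and 7.14 against 9.44, 9.52 and 8.43), with a difference of 3.66 ± 0.64 (adjusted p = 0.000249). Of 6 genes of this type 3 rose and 1, AT1G62510, fell (−1.37 ± 0.22; median 0.51), where 8.76% and 7.36% of all probe sets did. This list, too, was written after values had been seen. AT2G45180 rose by 0.82 ± 0.12 at a high level.

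CC-type glutaredoxins, small plant-specific proteins that bind glutathione and modulate transcription factors, rose more often than they fell. Of 17 measured 7 rose and 1 fell (median 0.44), where 8.76% and 7.36% of all probe sets did. This list was also written after values had been seen. Falls in this family numbered 2 without long-day replicate 2, with the replicate block, with the compared arrays alone in the fit or with dim probe sets left out, 3 with array weights and 4 with the block on the compared arrays. AT4G15700 read 6.22, 6.21 and 5.67 in short days and 7.83, 7.89 and 7.59 in long days (1.74 ± 0.24, adjusted p = 1.23e-05), and its neighbour AT4G15680 read 6.95, 6.96 and 6.57 against 8.98, 8.63 and 8.32 (1.82 ± 0.37, adjusted p = 0.00108). The long-day arrays were higher throughout. For AT4G15700 the means were 6.03 in cat2 SD2, 7.45 in Col0 SD2, 7.77 in cat2 LD2 and 7.81 in Col0 LD2. For AT4G15680 they were 6.83, 8.48, 8.64 and 8.81, so for both genes cat2 SD2 was the lowest of these groups. In Col0 none of the 17 rose and 1 fell, where 6.10% and 5.67% of all probe sets did. AT4G15690 rose by 1.03 ± 0.25, and these tandem copies may share signal. AT1G06830, elsewhere in the genome, rose by 1.41 ± 0.31 (adjusted p = 0.0022). AT3G62950 was the member that fell (−1.31 ± 0.18, adjusted p = 1.06e-05).

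Other rises were single genes. AT2G16660, a transporter of the major facilitator superfamily, read 10.19, 10.36 and 10.37 in short days and 12.75, 12.61 and 12.15 in long days (2.20 ± 0.16, adjusted p = 1.25e-09). AT1G43910, an ATPase of the AAA type, rose by 2.19 ± 0.43 (adjusted p = 0.000732). CYP71B36, a cytochrome P450, rose by 1.79 ± 0.23 (adjusted p = 6.78e-06). Of the 24 P450 genes measured 2 rose and 22 were not called, where 8.76% of all probe sets rose and 7.36% fell. The berberine bridge enzyme gene AT1G26390 rose by 2.20 ± 0.61 (adjusted p = 0.0146), but had no call without long-day replicate 2 or 3 or short-day replicate 1 or 2 (2.01, 1.93, 2.12 and 1.84). The largest rise without a listed gene was probe set 254818_at, with 6.50, 5.82 and 7.15 in short days and 11.65, 11.22 and 11.75 in long days (5.05 ± 0.26, adjusted p = 2.02e-12). The deepest fall of an unlisted probe set was 248332_at, with 11.02, 10.83 and 10.05 against 4.91, 4.99 and 5.28 (−5.58 ± 0.50, adjusted p = 2.4e-08).

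The same day-length comparison in Col0 used other arrays and called 2676 probe sets (11.8%; 1387 or 6.10% higher and 1289 or 5.67% lower). Probe sets that rose in both genotypes numbered 497, which is 24.9% of the rises in cat2 and 35.8% of those in Col0. Those that fell in both numbered 492, which is 29.4% and 38.2%. Opposite calls were fewer: 81 that rose in cat2 fell in Col0, and 52 that fell in cat2 rose in Col0. The cat2 and Col0 differences were compared in the same fit, as the difference of the 2 differences, and 1755 probe sets were called there (7.72%), 940 with the higher value in cat2 (4.13%) and 815 with the lower (3.58%). These counts changed with the fit: the total was 2796 when the fit held the compared arrays alone and 939 without Col0 long-day replicate 1. Between genotypes, 3225 probe sets were called in short days (14.2%; 6.62% higher and 7.56% lower in cat2) and 261 in long days (1.15%; 0.541% higher and 0.607% lower, and 2799 at an unadjusted p below 0.05). These comparisons share arrays with the day-length ones.

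Many of the chaperone falls had no counterpart in Col0. AT5G51440 differed by −0.12 ± 0.18 in Col0 (adjusted p = 0.768), and the cat2 difference minus the Col0 difference was −5.93 ± 0.25 (adjusted p = 1.71e-13). Fes1A differed by −0.02 in Col0 and by −3.77 ± 0.24 more in cat2 (adjusted p = 5.09e-10). AT5G48570 differed by 0.35 in Col0, with a difference of −4.58 ± 0.57 between the genotypes (adjusted p = 1.41e-05). Of the 16 chaperones and co-chaperones 1 fell and 2 rose in Col0, where 5.67% and 6.10% of all probe sets did. For 9 the cat2 difference was called as lower and for none as higher (3.58% and 4.13% of all probe sets). Hsp70-2 was among the 9 without a called fall in cat2, and its Col0 mean was 8.27 in short days and 9.46 in long days. Of the 10 small heat shock proteins 2 fell and 1 rose in Col0, and the cat2 difference was called as lower for 3 and as higher for 1. The falls of AT1G54050 (−0.92 in Col0) and AT2G19310 (−0.64 in Col0) were called in both genotypes and not called apart. AT1G71000 fell in Col0 too, from 8.07, 7.34 and 8.67 to 4.16, 4.36 and 4.36 (−3.74 ± 0.31, adjusted p = 1.7e-08), and reached the same low level in both genotypes. The genotypes differed by −2.53 ± 0.44 (adjusted p = 0.000693).

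Each of the 3 oxidative stress markers that fell in cat2 was flat in Col0: GSTU25 at −0.01, STZ at 0.03 and WRKY6 at 0.16, none of them called. The genotypes differed for all 3, by −2.57 ± 0.61 for GSTU25 (adjusted p = 0.0112), −2.55 ± 0.47 for STZ (adjusted p = 0.00129) and −2.42 ± 0.24 for WRKY6 (adjusted p = 7.93e-07). UGT73B5 (0.04) and UGT73C1 (0.10) were likewise not called in Col0, while UGT73B1 fell there by 0.60 ± 0.17 on the log2 scale (adjusted p = 0.0214). Of the 51 glycosyltransferases the cat2 difference was called as lower for 7 and as higher for 1, where 3.58% and 4.13% of all probe sets were.

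Some of the genes named for the size of the difference between the genotypes rose in Col0 where they fell in cat2, and so did CML37. CML37 read 4.46, 4.46 and 4.05 in Col0 short days and 6.19, 5.44 and 4.75 in Col0 long days, a rise of 1.14 ± 0.27 (adjusted p = 0.00659), where cat2 had a fall. The genotypes differed by −3.75 ± 0.39 (adjusted p = 1.02e-06). AT3G22060 rose by 1.00 ± 0.20 in Col0 (adjusted p = 0.00138; difference between genotypes −3.77 ± 0.28, adjusted p = 7.19e-09). AT1G66090, which encodes a protein of the TIR-NBS immune receptor type, rose by 1.26 ± 0.33 in Col0 (adjusted p = 0.0125) and fell by 2.28 ± 0.33 on the log2 scale in cat2 (adjusted p = 2.58e-05; difference −3.54 ± 0.47). AT4G39670 had a difference between genotypes of −4.67 ± 0.62 (adjusted p = 3.3e-05), with 1.25 ± 0.44 and no call in Col0 (adjusted p = 0.0638). Of 3 measured genes of salicylic acid and defence (median −0.42 in cat2 and 0.66 in Col0) 1, the immune kinase gene BIK1, was called, as a fall in cat2 (−0.42 ± 0.14, adjusted p = 0.0363) and a rise of 0.66 in Col0. Over all probe sets 7.36% fell in cat2 and 6.10% rose in Col0. For BIK1 the genotypes were called apart (−1.08, adjusted p = 0.00098). Its cat2 fall had no call with arrays centred on their medians or without any single array other than long-day replicate 3 (−0.45 to −0.35).

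Higher in cat2 than in Col0, the day-length difference of AT1G23100 was 0.92 ± 0.19 in cat2 and −0.84 ± 0.19 in Col0, both called (difference 1.76 ± 0.27, adjusted p = 0.000206). AT2G32220 and AT3G57490, both cytosolic ribosomal proteins, differed by 1.62 ± 0.34 (adjusted p = 0.00375) and 1.40 ± 0.26 (adjusted p = 0.0017). Each of them rose in cat2 and was not called in Col0. For AT4G12490 the Col0 arrays were uneven in short days too, though less than in cat2 (8.25, 10.50 and 8.37 in short days, 10.26, 10.48 and 11.11 in long days), and the genotypes were not called apart (3.42 ± 1.11, adjusted p = 0.0598).

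**Figure D3:**
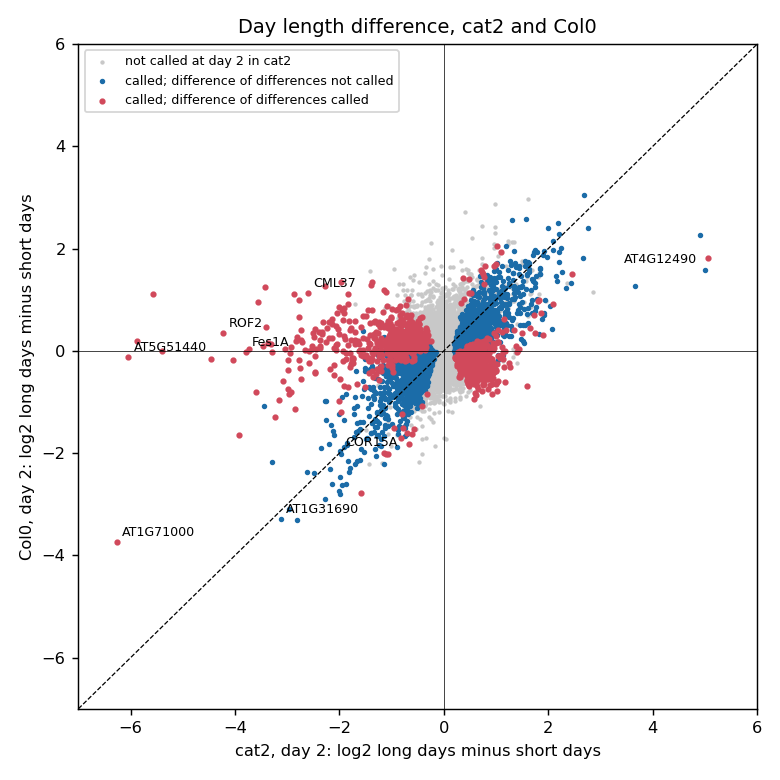
Day-length difference of every probe set in cat2 (horizontal axis, log2) and Col0 (vertical axis, log2) at day 2, with grey for probe sets not called in cat2, blue for those called in cat2 with no called difference between the genotypes and red for those whose differences were also called apart between the genotypes. Points such as AT5G51440 (−6.05 and −0.12) and Fes1A lie along the horizontal line at 0, and COR15A and AT1G31690 lie near the diagonal of equal change.

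The cold and dehydration genes fell in both genotypes. In Col0 all 6 fell (median −1.97), where 5.67% of all probe sets fell. For none of the 6 was the difference between the genotypes called, against 7.72% of all probe sets. COR15A differed by −1.96 ± 0.21 in Col0 and by −1.98 ± 0.21 in cat2 (difference −0.03 ± 0.29, adjusted p = 0.976). COR27 had the largest gap, −2.22 in Col0 and −1.15 in cat2 (1.07 ± 0.36, adjusted p = 0.0672). AT1G31690, a copper amine oxidase, fell in cat2 (−3.13 ± 0.46) and in Col0 (−3.28 ± 0.46; difference 0.16 ± 0.66, adjusted p = 0.93). ZW9, of the TRAF-like family, fell in both as well (−2.97 ± 0.46 and −3.09 ± 0.46). Among rises, AT2G16660 (1.73 ± 0.16), AT1G43910 (2.28 ± 0.43) and CYP71B36 (1.00 ± 0.23) rose in Col0 as well, and their differences between genotypes were not called (adjusted p = 0.244, 0.959 and 0.16).

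At day 4 the same comparison in cat2, on other arrays, called 2676 probe sets (11.8%), 1254 higher (5.51%) and 1422 lower (6.25%). Those that fell on both days numbered 753, or 45.0% of the falls at day 2 and 53.0% of those at day 4, and those that rose on both numbered 528, or 26.5% and 42.1%. Opposite calls were 13 for falls at day 2 and 44 for rises. The day-2 and day-4 differences were called apart for 642 probe sets (2.82%), 427 with the higher value at day 2 (1.88%) and 215 with the lower (0.945%). That count depended on single arrays, with 234 without short-day replicate 2 of day 4, and was 1842 with array weights. The largest falls were still present at day 4, when AT1G71000 differed by −5.88 ± 0.31 and AT5G51440 by −4.85 ± 0.18. The latter was called as a deeper fall at day 2 (−1.20 ± 0.25, adjusted p = 0.0106), and UGT73B1 differed by −3.07 at day 2 and −3.08 at day 4 (difference 0.01 ± 0.24).

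Several genes, named mainly for the size of the difference between the days, had a smaller difference at day 4. STZ differed by −2.52 at day 2 and 0.48 ± 0.33 at day 4 (difference −3.01 ± 0.47, adjusted p = 0.00162), with mean levels at day 4 of 8.32 in short days and 8.81 in long days. CML37 differed by −0.28 at day 4 (difference −2.33 ± 0.39, adjusted p = 0.00197), and its short-day mean was 4.21 by then. AT3G22060 differed by −0.67 ± 0.20 (difference −2.10 ± 0.28, adjusted p = 0.00051) and WRKY6 by −0.82 ± 0.17 (difference −1.43 ± 0.24, adjusted p = 0.00222). Hop3 fell by 0.77 ± 0.25 at day 4 on the log2 scale (difference −2.15 ± 0.36, adjusted p = 0.00197). AT5G48570 fell by 1.61 ± 0.40 at day 4, and its difference between days (−2.62 ± 0.57, adjusted p = 0.0127) was −2.19 with an adjusted p of 0.0586 without short-day replicate 2 of day 4.

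COR15A went the other way, with a deeper fall at day 4 (−3.54 ± 0.21) than at day 2 (difference 1.56 ± 0.29, adjusted p = 0.0042). All 6 cold and dehydration genes fell at day 4 (median −2.17), where 6.25% of all probe sets fell. The 17 CC-type glutaredoxins had a median of −0.17 at day 4, and AT4G15700 differed by 0.26 ± 0.24 (difference 1.47 ± 0.34, adjusted p = 0.0176), and its day difference was 1.41, 1.33 and 1.37 with no call without long-day replicate 2 of day 2, long-day replicate 2 of day 4 and short-day replicate 2 of day 4. The rise of AT2G16660 was smaller at day 4 (1.10 ± 0.16; difference 1.09 ± 0.23, adjusted p = 0.00977). AT4G12490 was still higher at day 4 (3.61 ± 0.78, adjusted p = 0.00247).

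**Figure D4:**
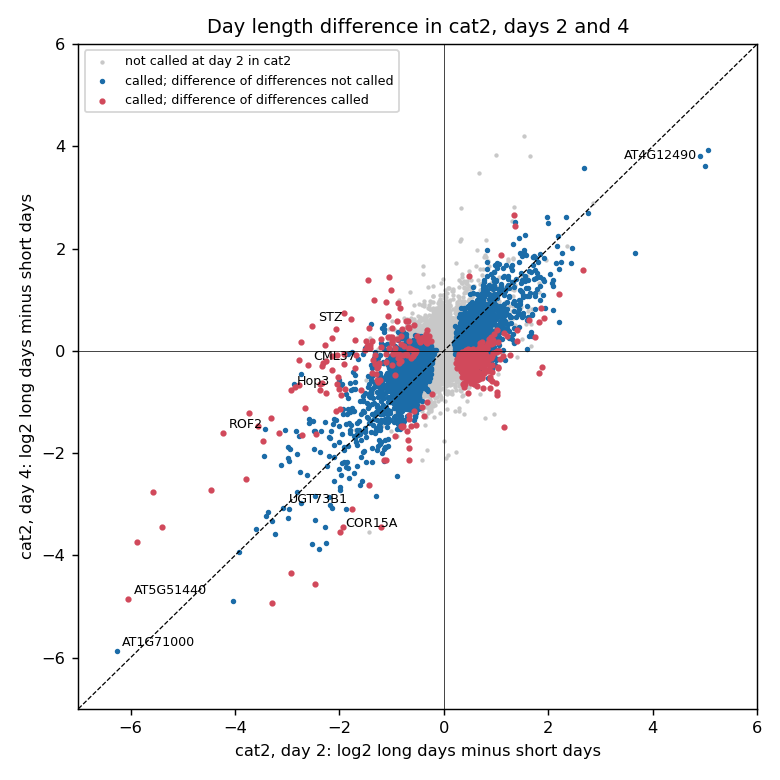
Day-length difference of every probe set in cat2 at day 2 (horizontal axis, log2) and day 4 (vertical axis, log2), coloured by the calls as in the plot of cat2 against Col0 but with the test of day 2 against day 4. AT1G71000 lies near the diagonal at the lower left and AT5G51440 (−6.05 and −4.85) above it. STZ and CML37 lie close to the horizontal line at 0, and Hop3 a little below it.

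Set against the plants that stayed at high CO2, the long-day level of several falling genes was the nearer one. AT5G51440 had a mean of 4.05 ± 0.18 (SD, n = 3) in cat2 at high CO2, against 10.36 in cat2 SD2 and 4.32 in cat2 LD2. Fes1A stood at 7.18 ± 0.07 (SD, n = 3) at high CO2 and 7.04 in LD2, and CML37 at 3.79 ± 0.20 (SD, n = 3) and 4.10. UGT73B1 remained higher in LD2 (6.03) than at high CO2 (4.89 ± 0.25, SD, n = 3). AT1G71000 had a level between those of the air groups at high CO2 (7.19 ± 0.62, SD, n = 3). COR15A was high at high CO2 (13.14 ± 0.21, SD, n = 3) and in short days, and lower only in the long-day groups. The high-CO2 plants had short days, so LD2 differs from them in air and in day length, and these levels were not tested against each other.

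**Figure D5:**
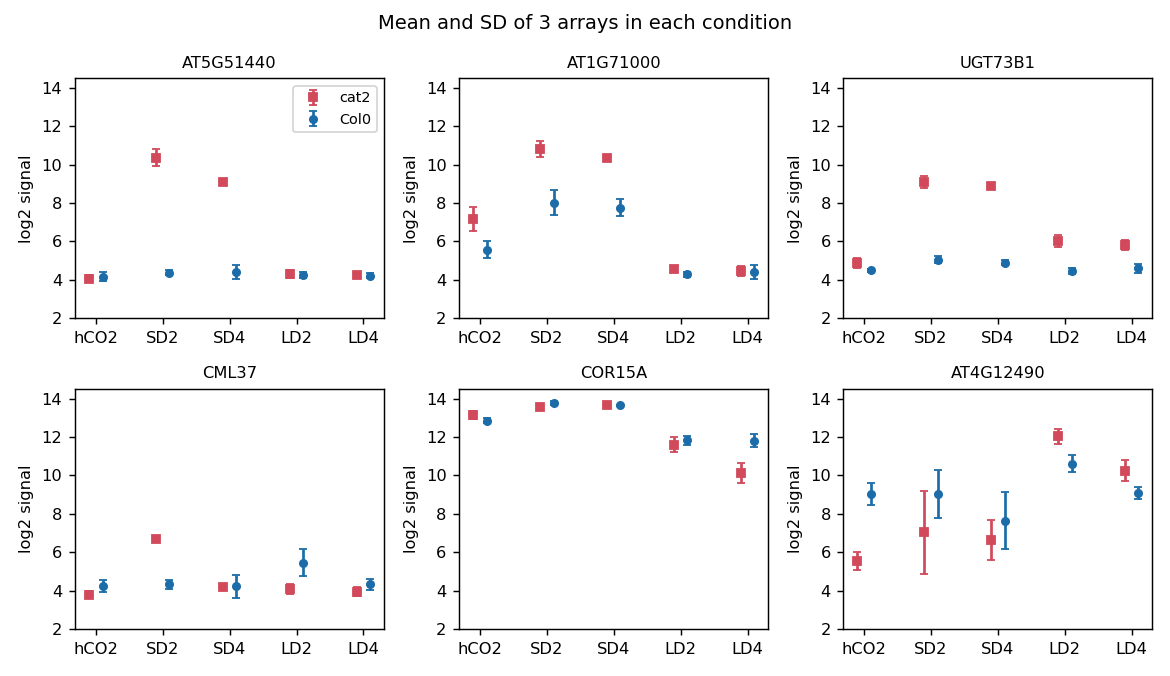
Mean log2 signal and SD of 3 arrays of 6 genes in each of the 5 conditions, for cat2 (red squares) and Col0 (blue circles). AT5G51440 and CML37 stand high in cat2 SD2, AT5G51440 and UGT73B1 also in cat2 SD4, and COR15A is low in LD2 and LD4 of both genotypes.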

How the data were processed

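Per the submitters' processing notes, the authors summarised each ATH1 array by RMA (affy; version not given in the sources used here). The deposited log2 values of 22810 probe sets were analysed without further scaling, after 64 control probe sets were removed. In the platform annotation 13513 of the 22746 others had 1 gene, 503 had several and 8730 were not listed; symbols follow RefSeq (TAIR10.1), which matched 13436.

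All 30 arrays entered 1 model of 10 group means in limma 3.58.1 (R 4.3.3), and differences were tested with moderated t statistics and Benjamini-Hochberg adjustment over 22746 probe sets. Signal is limited by background at low levels, and the number of arrays and the spread between them limit the precision. The arrays of a group were pools of different plants, and no array columns were identical.

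Named genes were the 12 largest called rises and falls with 1 gene and no overlap between arrays, 5 each way for the differences with Col0 and with day 4, up to 4 called members of each list and its largest uncalled one, and the unlisted probe set with the largest rise and fall. Further members of the lists are given beside them. The members, the comparisons and the lists were chosen with earlier results of these data known. Of 277 listed loci 50 had a probe set of their own. Lists by family were written from gene symbols, and 5 loci that met a symbol pattern but belong to another family were left out. A further 5 lists were written after the annotation and the values had been seen. They cover small heat shock proteins, chaperones and co-chaperones, CC-type glutaredoxins, EARLI1-like lipid transfer proteins and folding in the endoplasmic reticulum. A planned search for promoter motifs was not run, since no promoter sequences were used here.

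The fit was repeated with replicate number as a block, with the compared arrays alone, and without probe sets of a mean log2 below 5. It was also repeated after further quantile normalization or centring on array medians, and with a trended and robust eBayes. Array weights and 1 probe set per gene were tried as well. Each array of the groups compared was left out in turn, but arrays of the other groups were not. The fit was tested on simulated data. Tables and figures used Python 3.11.15, pandas 2.3.3 and matplotlib 3.10.9.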

Additional observations from a re-analysis of the deposited data

Results flagged for a closer look

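Among the named probe sets the day-length difference at day 2 was called as different between cat2 and Col0 for 42, and each value here is the cat2 difference minus the Col0 difference on the log2 scale (limma with Benjamini-Hochberg). They were named partly for their size in cat2, so their number is a description. Of the probe sets whose day-length difference was lower in cat2, the unlisted 248332_at had −6.68. The heat shock and chaperone genes AT5G51440 had −5.93, AT5G48570 −4.58, Fes1A −3.77, Hop3 −3.0, AT2G29500 −2.79, AT1G71000 −2.53, AT1G53540 −2.44 and Hsp70-2 −1.90.

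Of genes of signalling and defence, AT4G39670 had −4.67, AT3G22060 −3.77, CML37 −3.75, AT1G66090 −3.54, STZ −2.55, WRKY6 −2.42, CML38 −1.95 and BIK1 −1.08. Of genes of detoxification, UGT73B5 had −3.08, GSTU25 −2.57, UGT73C1 −2.48, UGT73B1 −2.47 and GSTU22 −0.96. Among the other genes with a lower day-length difference in cat2, AT3G04010, a glycosyl hydrolase, had −2.80 and AT1G09500, an alcohol dehydrogenase-like enzyme, −2.62. AT3G48650 had −2.76, AT1G05575 −2.18, AT1G62510 −1.30, AT1G04770 −1.24, ATG8H −1.07, MCCA −1.0, EXGT-A3 −0.80 and SBE2.2 −0.57.

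The day-length difference was higher in cat2 for the unlisted 254818_at (3.24), AT1G23100 (1.76), AT3G61100 (1.65), AT2G32220 (1.62) and AT3G59670 (1.61). It was also higher for AT2G23910 (1.60), AT3G57490 (1.40), AT4G15700 (1.38), AT1G22690 (1.02) and AT4G21870 (0.83). The calls of AT3G61100 and AT3G59670 were lost without Col0 long-day replicate 1 (1.37 and 1.29). Those of AT4G21870, SBE2.2, AT1G04770, AT1G22690 and EXGT-A3 were each lost when any of several single arrays was left out. AT4G21870 was then at 0.61 to 0.90, SBE2.2 at −0.58 to −0.46, AT1G04770 at −1.20 to −1.05, AT1G22690 at 0.82 to 1.10 and EXGT-A3 at −0.74 to −0.68.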

How the results depend on the processing

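No call of the cat2 day-2 comparison changed sign in any alternative. The 3668 calls ranged from 2281 (without short-day replicate 1) to 3429 when 1 array was left out, with 1242 to 1837 rises and 1039 to 1592 falls, and with 1 probe set per gene, which tests fewer probe sets, there were 1884 (1058 rises, 826 falls). Array weights gave the highest count, 4905 (2739 rises, 2166 falls). The difference from Col0 (1755 calls) had 2796 (1430 higher, 1366 lower) with the compared arrays alone in the fit, 2745 (1513, 1232) with array weights and 896 (546, 350) with 1 probe set per gene. Without single arrays it had 939 to 1738 (450 to 928 higher, 482 to 810 lower), with the lowest total without Col0 long-day replicate 1. The difference from day 4 (642 calls) had 1842 (1110, 732) with array weights and 339 (240, 99) with 1 probe set per gene. Without single arrays it had 234 to 864 (147 to 516 higher, 87 to 348 lower), with the lowest total without short-day replicate 2 of day 4 and the highest without its replicate 1. Apart from 1 probe set per gene, the cause of these changes was not tested.

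Arrays with the same replicate number were not taken as pairs: their residuals correlated at 0.17, 0.18 and −0.01, and not every array correlated best with its own number. With the replicate number as a block 3734 probe sets were called, and 4671 with the block when the fit held the compared arrays alone, against 4093 without the block. Of 80 called named probe sets 64 kept their call in all alternatives and 16 lost it in at least 1, and 16 uncalled ones were called in at least 1. Of 42 named differences from Col0 35 kept their call in all alternatives, as did 17 of 26 from day 4. None of these changed sign. With 3 arrays in a group, small differences at low signal are the least secure.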

Other observations

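A few genes of the cell wall rose in cat2. Expansins loosen cell walls and xyloglucan hydrolases (XTH) cut and rejoin one of their polymers. Of 29 measured 5 rose and none fell (median 0.03, the same as over all probe sets), where 8.76% of all probe sets rose. EXPA8 read 8.76, 9.17 and 9.55 in short days and 10.66, 10.81 and 10.64 in long days (1.54 ± 0.28, adjusted p = 0.000383, limma). XTH19 was at 4.00 to 4.03 in short days and read 5.87, 5.59 and 5.11 in long days (1.51 ± 0.28, adjusted p = 0.000445). In Col0 6 of the 29 rose and 3 fell, where 6.10% and 5.67% of all probe sets did. EXGT-A3, also an XTH, rose by 0.74 ± 0.15 in cat2 and by 1.53 in Col0. Leaving out dim probe sets the count of rises in cat2 was 3. EXPA15 (−0.58, adjusted p = 0.0685) was called as a fall with the compared arrays alone in the fit (adjusted p = 0.0113) and with array weights (adjusted p = 0.00762), and 1 member of the list fell without long-day replicate 3.

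Of 19 sugar transporters measured 3 rose and 2 fell in cat2 (median 0.10), where 8.76% and 7.36% of all probe sets did, so the few calls describe single genes. The vacuolar transporters SWEET2 and SWEET17 rose by 1.18 ± 0.24 and 0.70 ± 0.14, and TMT1, which loads sugars into the vacuole, by 0.42 ± 0.12. Its relative TMT2 fell by 0.70 ± 0.13 on the log2 scale (adjusted p = 0.000456), and by 0.80 in Col0. SWEET4 fell by 1.13 ± 0.28 (adjusted p = 0.00627), and by 0.91 with no call without short-day replicate 1. For none of the 19 was the difference between the genotypes called, against 7.72% of all probe sets.

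Genes of starvation and sulfur use had rises in Col0. Of 4 genes of sugar starvation 3 rose in Col0, where 6.10% of all probe sets rose, and none in cat2, where 8.76% did. In cat2 IVD fell by 0.64 ± 0.21 (adjusted p = 0.0386) and had no call without long-day replicate 2 or short-day replicate 1 or 2 (−0.46, −0.53 and −0.61). For 1 of the 4, MCCA, which acts in leucine breakdown, the genotypes were called apart. Its mean was 7.66 in cat2 SD2 and 6.82 in Col0 SD2, against 7.25 in cat2 LD2 and 7.42 in Col0 LD2. Both measured genes listed for sulfur use rose in Col0 and neither was called in cat2. Both were called apart between the genotypes, as were 7.72% of all probe sets. One of them, AT1G04770, differed by −0.27 ± 0.24 in cat2 and by 0.97 in Col0. Its mean was already 9.03 in cat2 SD2, against 7.67 in Col0 SD2, 8.76 in cat2 LD2 and 8.65 in Col0 LD2.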
